A study of Mus musculus with 6 samples.

Results

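The Hox genes of the 4 mouse clusters were examined in the mouse cardiac outflow tract (OFT) at E13.5, from the gene counts of 6 bulk RNA-Seq libraries. Members were the protein-coding genes whose symbol is Hox, a cluster letter from a to d and a number. Of 39 such genes in the GENCODE M21 annotation, 27 had counts among the 28777 genes of the table, and the other 12 (*Hoxa6*, *Hoxa11*, *Hoxa13*, *Hoxb13*, *Hoxc8*, *Hoxc10*, *Hoxc11*, *Hoxc12*, *Hoxd10*, *Hoxd11*, *Hoxd12* and *Hoxd13*) were not analysed here. The number in a symbol is the paralog group, and the analysed genes fell into 11 of the groups between 1 and 13. The libraries came from embryos labelled *Notch1*+/-; *Nos3*-/- (3 libraries, labelled mutant) and from wildtype littermates, *Notch1*+/+; *Nos3*+/+ (3 libraries), all kept on a C57/BL6J background. Both are germline knockout alleles, and each library pooled the OFTs of 3 embryos, cut at the base below the conal cushions.

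Hox genes encode homeodomain transcription factors that give cells a position along the head-to-tail axis. They lie in clusters in which the genes of low number, at the 3′ end, are switched on earlier and farther forward than those of high number, a rule known as collinearity. Retinoic acid is a known inducer of the 3′ genes, Polycomb proteins keep silent genes closed, Trithorax proteins keep active genes open, and Pbx and Meis proteins bind DNA together with Hox proteins. In the heart, genes of the first groups are known from the posterior second heart field, which adds cells to the arterial pole, and from the cardiac neural crest, which enters the OFT cushions from the caudal pharyngeal arches.

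The clusters lie on chromosomes 6 (a), 11 (b), 15 (c) and 2 (d). The b cluster spanned chr11:96194316-96368256, the c cluster chr15:102921103-103036852 and the d cluster chr2:74668310-74765142 in mm10, measured over all their annotated Hox genes. Counts were available for 8 of 11 genes of the a cluster, 9 of 10 of the b cluster, 5 of 9 of the c cluster and 5 of 9 of the d cluster. Because paralogs share the homeobox, the coding sequence of the DNA-binding homeodomain, its most conserved stretch is shown first. These 24 bases code for the recognition helix and come from GENCODE M21 transcripts. Capitals mark the bases that differ from *Hoxb4*, the gene with the highest level per length:
Hoxb4: tggttccagaatcggcgcatgaag
Hoxa4: tggttTcagaaCcggAgAatgaag
Hoxc4: tggttccaAaaCcgTcgTatgaaA
Hoxd4: tggttccagaaCcggAgGatgaag
Hoxa3: tggttccagaaCcgCcgcatgaag
Hoxb3: tggttccagaaCcgTcgcatgaag
Hoxd3: tggttccagaaCcgTcgcatgaag
Hoxa2: tggttTcagaaCcggAgAatgaag
Hoxb2: tggttccagaaCcgAcgcatgaaA
Each of the 8 lines under *Hoxb4* differed from it at 2 to 5 of the 24 bases, while *Hoxa7*, of another paralog group, was identical to it here. *Hoxb3* and *Hoxd3* were identical to each other, as were *Hoxa4* and *Hoxa2*, of different groups. The stretch was found by its amino acids, which are the same in all lines, so the capitals mark silent changes only. Over whole transcripts the genes were easier to tell apart. No stretch of 50 bases, the length of a sequenced read, was shared with another gene for 17 of the 27 genes. The largest shares were 60.2% of the 50-base stretches of *Hoxd3* and 46.8% of those of *Hoxd4*, which have exons in common. Values of *Hoxd3* and *Hoxd4* are therefore uncertain as values of 1 gene each.

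RefSeq promoters (GRCm38.p6, 250 bases before the gene start) could be matched for 15 of the 27 genes, with 16 starts. A Hox-Pbx site (TGATNNAT, both strands) lay in 3 of the 16 windows, those of *Hoxa2*, *Hoxb1* and *Hoxb8*, and in 7.68% of all 32851 promoters of the table. A retinoic acid direct repeat (AGGTCA repeated after 5 other bases) lay in 0 of the 16 and in 0.00913% of all, a TATA box (TATAAA) in 3 of the 16 and in 12.4% of all, a CCAAT box (CCAAT) in 9 of the 16 and in 33.8% of all, and a GC box (GGGCGG) in 6 of the 16 and in 32.7% of all, each on both strands. None of these motifs contains another. The windows printed are those of *Hoxb4* (chr11:96318017-96318266, plus strand), *Hoxa2* (chr6:52164832-52165081, minus strand) and *Hoxb8* (chr11:96281655-96281904, plus strand), and are shown because *Hoxb4* and *Hoxa2* were read in every library and *Hoxb8* was near the floor. Capitals mark motif matches, and 0 of their bases lay in an exon of GENCODE M21:
Hoxb4: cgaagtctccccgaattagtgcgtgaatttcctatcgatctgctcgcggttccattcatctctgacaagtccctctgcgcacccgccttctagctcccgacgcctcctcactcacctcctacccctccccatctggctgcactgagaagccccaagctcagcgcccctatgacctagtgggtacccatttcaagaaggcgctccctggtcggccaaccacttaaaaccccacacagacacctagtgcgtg
Hoxa2: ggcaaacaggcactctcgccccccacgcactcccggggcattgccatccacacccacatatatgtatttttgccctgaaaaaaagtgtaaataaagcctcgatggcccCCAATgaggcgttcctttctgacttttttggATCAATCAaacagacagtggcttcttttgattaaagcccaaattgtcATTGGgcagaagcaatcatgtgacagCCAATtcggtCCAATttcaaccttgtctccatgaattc
Hoxb8: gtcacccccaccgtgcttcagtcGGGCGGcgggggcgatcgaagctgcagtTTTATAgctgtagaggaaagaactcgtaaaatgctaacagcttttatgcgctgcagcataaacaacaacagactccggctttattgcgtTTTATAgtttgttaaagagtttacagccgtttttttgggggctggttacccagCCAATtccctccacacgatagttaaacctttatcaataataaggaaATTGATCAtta
The *Hoxb4* window held none of the 5 motifs, the *Hoxa2* window held the Hox-Pbx site and 4 CCAAT boxes, and the *Hoxb8* window held the Hox-Pbx site, 2 TATA boxes, a CCAAT box and a GC box. A match is a run of letters and not a shown binding site.

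The libraries held between 34729103 and 44387490 counts. *Notch1* was higher under the mutant label (74.3, 88.2 and 83.6 CPM in wildtype against 155, 161 and 139 CPM in mutant; log2 fold change 0.89 and adjusted p = 0.0313, quasi-likelihood test of edgeR, Benjamini-Hochberg adjusted), and *Nos3* had 31.8, 47.2 and 48.1 against 22.1, 22 and 20.4 CPM (log2 fold change −0.98, adjusted p = 0.128). Because *Notch1* goes against the label, groups are named by their labels throughout. The library numbers of wildtype 2 and wildtype 3 are swapped between sample titles and sample descriptions, and the titles were followed here. The libraries also differed in the levels of tissue markers. The 15 genes of a Myocardial marker list summed to between 36254 and 53587 CPM in wildtype and between 25119 and 35754 in mutant, and the 13 genes of a Mesenchymal list to between 5398 and 10484 in wildtype and between 9727 and 12436 in mutant, with no marker of either list at or under 3 counts.

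Reads on Hox genes were few. All 27 genes together had 468, 423 and 142 counts in wildtype 1, 2 and 3 and 508, 663 and 364 in mutant 1, 2 and 3, or 2568 reads over the 6 libraries. A gene at or under 3 counts was treated as at the floor, which was 0.0675 to 0.0924 CPM (reads relative to the library total scaled by TMM), and floors cover counting error only. In each library between 11 and 15 of the 27 genes were at or under the floor. Only 9 genes were above 3 counts in all 6 libraries, among them *Hoxa3*, *Hoxb4*, *Hoxa5* and *Hoxd8*, of which 7 are among the 12 genes of groups 1 to 4 and 2 among the 15 genes of groups 5 to 13. *Hoxa7*, *Hoxb1*, *Hoxc9*, *Hoxd1* and *Hoxd9* were at or under 3 counts in all 6 libraries.

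**Figure D1:**
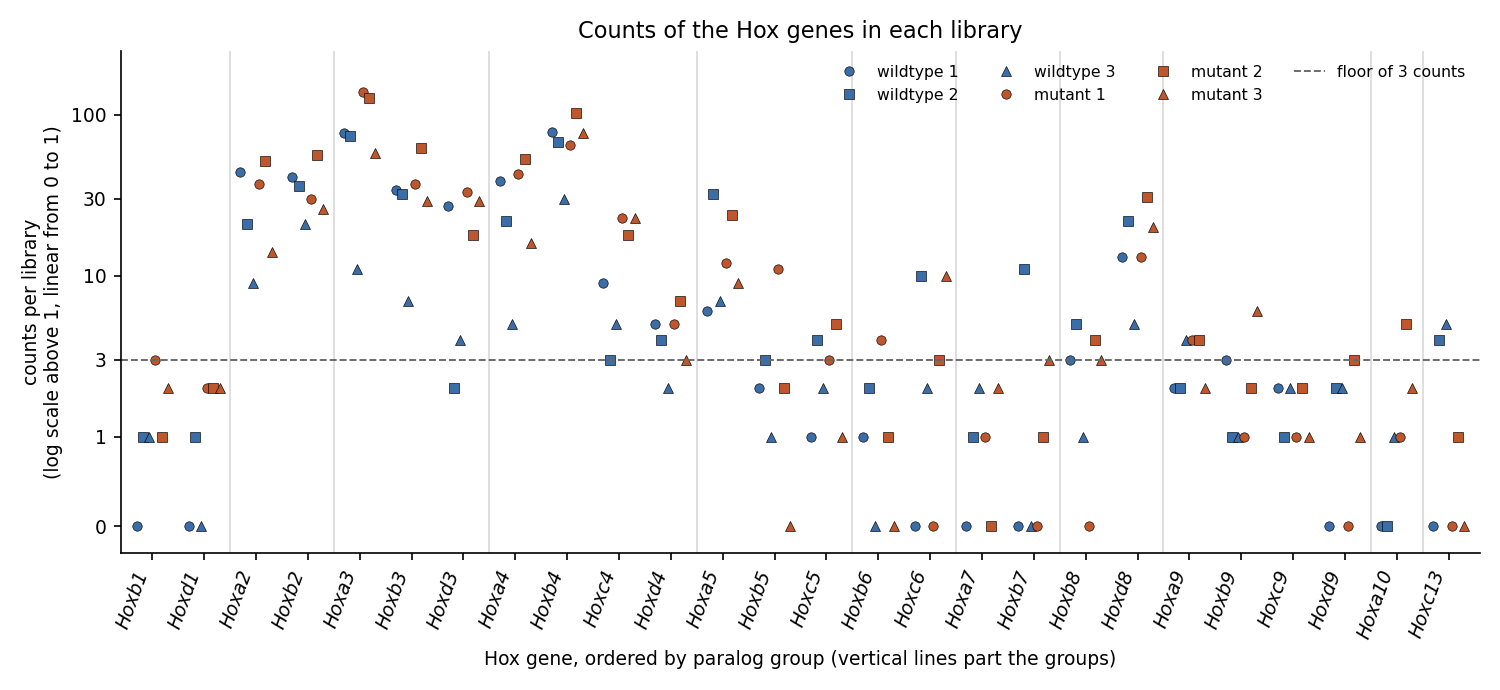
Counts of 26 Hox genes (horizontal axis, ordered by paralog group) in the 6 libraries (blue: wildtype, orange: mutant; circle, square and triangle: replicates 1, 2 and 3), on a vertical axis that is logarithmic above 1. Most genes of groups 1 to 4 lie above the dashed floor of 3 counts, and most genes of groups 5 to 13 lie on or under it, with *Hoxa5* and *Hoxd8* above it in all 6 libraries.

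Levels of different genes were compared as CPM per kb of merged exon. Group 4 (*Hoxa4*, *Hoxb4*, *Hoxc4*, *Hoxd4*) had the highest summed level, 1.34 ± 0.553 CPM per kb (SD, n = 6), and was the highest group in 6 of 6 libraries. Such sums run over the genes with counts, 4 in group 4, 2 in group 2, 3 in group 3 and 1 each in groups 10 and 13. They are not levels per gene, and a group with more genes can sum higher. Group 2 had 0.675 ± 0.321 and group 3 had 0.654 ± 0.342, which overlapped within their SD with each other and with group 4. The levels of the groups from 5 on, from the highest to the lowest, were those of group 5 (0.255 ± 0.155), group 8 (0.187 ± 0.0999), group 9 (0.0706 ± 0.0265), group 6 (0.0616 ± 0.0458), group 7 (0.0496 ± 0.0684), group 13 (0.0188 ± 0.0263) and group 10 (0.0123 ± 0.0152), each with SD and n = 6. Neighbours among these groups overlapped within their SD at every step. Over several steps the order was the same in all libraries, since each of groups 1 to 4 was above each of groups 6 to 13 in 6 of 6 libraries, and above each of groups 5 to 13 in 5 of 6. Groups 1 to 5 held 88.7% of the summed Hox level over the libraries, 87.1% ± 6.8 in wildtype and 90.2% ± 5.16 in mutant (SD, n = 3 each).

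**Figure D2:**
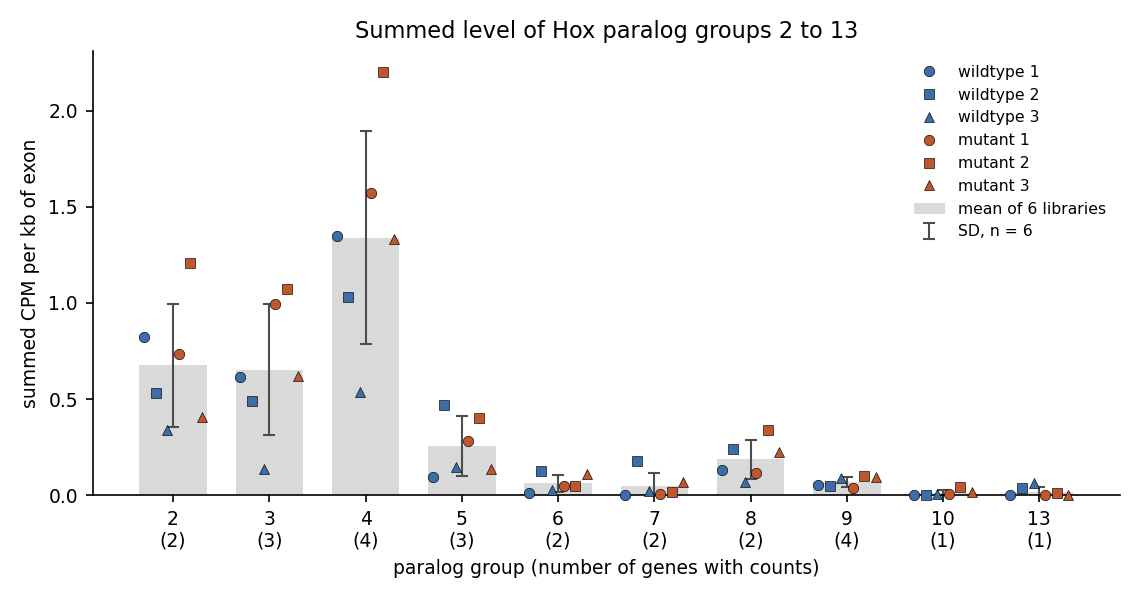
Summed CPM per kb of exon of paralog groups 2 to 13 (number of genes in parentheses); bars are means of 6 libraries, error bars SD, and points single libraries (blue: wildtype, orange: mutant). Group 4 is highest at 1.34, groups 2 and 3 lie at 0.675 and 0.654, and groups 9, 6, 7, 13 and 10 are each under 0.1.

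Within the first 4 groups, most of the level came from the a and b clusters. In group 1, *Hoxb1*, which is known from the second heart field, had 0 to 3 counts per library, and *Hoxd1* had 0 to 2, so that both were at the floor. In group 2, *Hoxa2*, which sets the identity of the second pharyngeal arch, had 0.418 ± 0.242 CPM per kb and *Hoxb2* had 0.257 ± 0.0893, a difference within their SD. *Hoxa3*, which is needed for the thymus, the parathyroids and the third arch artery, was the highest gene of group 3 in 6 of 6 libraries (0.34 ± 0.2), ahead of *Hoxb3* (0.2 ± 0.109) and *Hoxd3* (0.113 ± 0.0778). These levels overlapped within their SD and are per kb of merged exon. Of that length, 27.1% is shared with other genes for *Hoxa3*, 52.9% for *Hoxb3* and 62.8% for *Hoxd3*. The order per unshared length was not computed. *Hoxb4*, known from blood stem cells and the cervical vertebrae, was the highest of the 27 genes (0.695 ± 0.229) and led its group in 5 of 6 libraries, followed by *Hoxa4* (0.468 ± 0.29), *Hoxc4* (0.136 ± 0.0909) and *Hoxd4* (0.0374 ± 0.0148). Over whole clusters, the a cluster held 51.6% of the summed level, the b cluster 33.4%, the d cluster 8.87% and the c cluster 6.12%.

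Along the a and b clusters the level differed most between particular neighbours. In the a cluster, *Hoxa5*, a regulator of airway and lung development, had between 0.0719 and 0.411 CPM per kb over the 6 libraries, and *Hoxa7*, the next gene with counts, between 0 and 0.0214, without overlap. In the b cluster, *Hoxb4* had between 0.36 and 1.06 CPM per kb and its neighbour *Hoxb5* between 0 and 0.0987, again without overlap. The 3′ end was not the highest part of the b cluster, where *Hoxb1* had between 0 and 0.0323 CPM per kb and the next gene, *Hoxb2*, between 0.186 and 0.428. In the c cluster only *Hoxc4* was above 3 counts in more than 2 libraries (5 of 6). In the d cluster *Hoxd8* (0.161 ± 0.0867) and *Hoxd3* (0.113 ± 0.0778) had the highest mean levels, which overlapped within their SD. *Hoxd3* was above *Hoxd8* in wildtype 1 (0.145 against 0.107 CPM per kb) and in mutant 1 (0.197 against 0.118). Not divided by length, *Hoxd3* had the higher mean (0.475 against 0.443 CPM). *Hoxd8*, with counts of 13, 22 and 5 in wildtype and 13, 31 and 20 in mutant, was the only gene of groups 6 to 13 above the floor in all 6 libraries.

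Genes of groups 9 to 13 pattern the lumbar, sacral and tail regions, the limb and, for *Hoxc13*, hair and nails. The 6 of them with counts (*Hoxa9*, *Hoxa10*, *Hoxb9*, *Hoxc9*, *Hoxc13*, *Hoxd9*) had 68 of the 2568 reads and never more than 6 counts in a library. Single libraries stood out among the middle groups. *Hoxb7* had 11 counts in wildtype 2 and 0 to 3 in the others, and *Hoxc6* had 10 counts in wildtype 2 and 10 in mutant 3 and 0 to 3 in the others. *Hoxb5* had 11 counts in mutant 1 and 0 to 3 in the others. Wildtype 2 had 100 counts on groups 5 to 13, against 33 and 35 in the other wildtype libraries and 51, 88 and 60 in mutant 1, 2 and 3. These counts are not scaled to library size, and wildtype 2 held 43329291 counts in all against 35551470 in mutant 2. Wildtype 2 therefore did not clearly stand out from mutant 2 on these groups. The 6 genes of a Liver list summed to 98.2 CPM in wildtype 2, to 5.82 CPM in mutant 2 and to 1.59 to 27.7 CPM in the other libraries. The part of liver tissue in these counts was not tested.

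All Hox genes were low for this tissue. Their highest level, that of *Hoxb4*, was under the median of 17319 protein-coding genes (3.23 CPM per kb), with 30.4% of them below it, and 0 of the 27 genes reached that median. Of the genes of Hox cofactors, *Meis2* had 11.2 ± 2.16 and *Meis1* 5.39 ± 0.652 CPM per kb (SD, n = 6), both above that median, and *Pbx4* had few reads (0.69 to 1.72 CPM). In bulk tissue, fewer cells that express a gene and less RNA per cell cannot be told apart.

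The comparison of the labels asks whether Hox genes differed between mutant and wildtype OFTs. The summed Hox level was 10.5, 10.2 and 4.38 CPM in wildtype 1, 2 and 3 and 12.7, 17.7 and 9.65 CPM in mutant 1, 2 and 3, or 8.36 ± 3.46 against 13.3 ± 4.06 (SD, n = 3 each). The groups overlapped, since mutant 3 lay under wildtype 1 and 2. Between libraries of the same number the sum was higher in mutant in 3 of 3 pairs by the titles and in 2 of 3 by the descriptions. No Hox gene passed the test: 0 of 27 were called by edgeR's quasi-likelihood test at an adjusted p of at most 0.05, where 0.0213% of the 28157 genes tested were called, 0 by DESeq2 (2.64% of genes called; DESeq2 gave an adjusted p to 7 of the 27 and left 20 without one for their low counts) and 0 by limma-voom (0.0178%). At an unadjusted p under 0.05, 2 genes were higher and 0 lower under the mutant label, against 8.23% and 7.83% of all genes tested. Wildtype and mutant libraries were fully apart for 2 of the 27 genes, *Hoxc4* and the floor gene *Hoxd1*, against 19.6% of all genes tested. Other fits called 1 gene (replicate block by the titles, 5.6% of all genes called), 2 genes (that block with a GC content and length offset, 8.6%; without wildtype 1, 9.45%) or 0 (replicate block by the descriptions, 0.295%). In these fits the share of Hox genes called was not above that of all genes.

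Directions were less even. The log2 fold change was above 0 for 22 genes and below 0 for 5, while 51.2% of all genes tested were above 0, and the median over the 27 genes was 0.55, against 0.011 over all genes. With the 11 genes that were at the floor in every library of at least 1 group set to their bound, the median was 0.17. All 12 genes of groups 1 to 4 had a log2 fold change above 0. Among them, *Hoxb1* and *Hoxd1* were at the floor in every library, so the sign of their change is uncertain. Some others were less than their SE from 0, such as *Hoxb2* (0.26, SE 0.38) and *Hoxd4* (0.50, SE 0.79). Because the genes of 1 cluster share their libraries and neighbourhood, they are not independent, and no test was made over them.

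**Figure D3:**
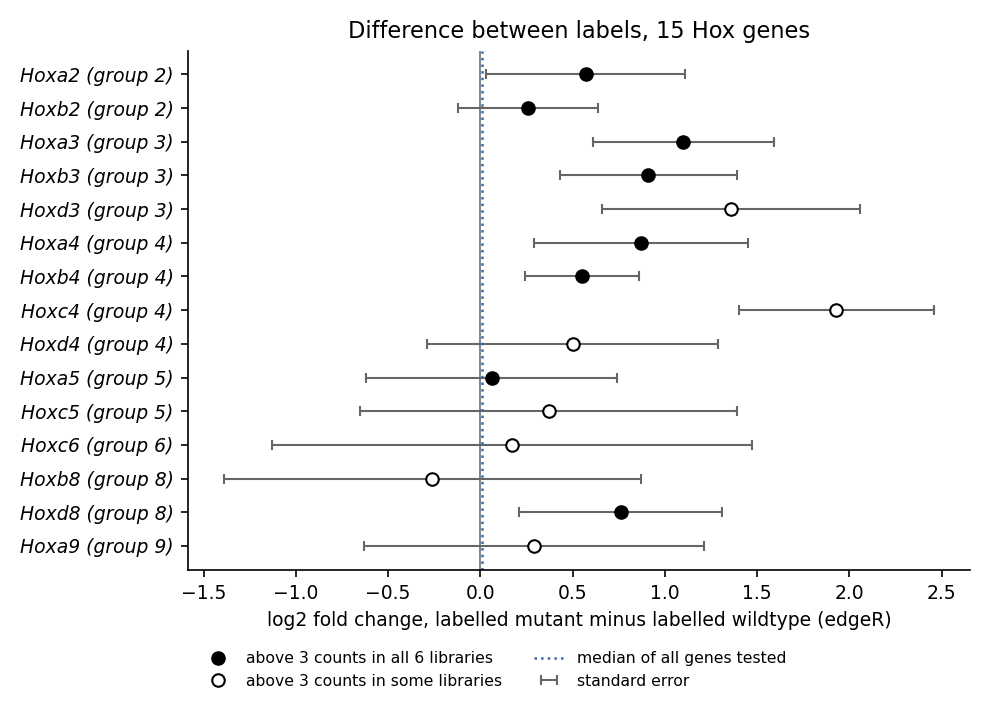
Log2 fold change (labelled mutant minus labelled wildtype, edgeR) with its standard error for 15 Hox genes that were not at the floor in every library of a group; filled points were above 3 counts in all 6 libraries, and the dotted line is the median of all genes tested (0.011). *Hoxc4* has the highest value (1.93), and *Hoxb8* is below 0.

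*Hoxc4* (ENSMUSG00000075394, chr15:103018934-103036852), a gene of the cervical and thoracic region, had 9, 3 and 5 counts in wildtype 1, 2 and 3 and 23, 18 and 23 in mutant 1, 2 and 3. Every mutant library was above every wildtype library, with means of 0.143 ± 0.0658 and 0.555 ± 0.0671 CPM (SD, n = 3 each). The log2 fold change was 1.93 (SE 0.53), with an adjusted p of 0.194 from edgeR's quasi-likelihood test and p = 0.1 from the exact two-sided permutation test, the smallest that 3 against 3 can give. It was called in a fit that left out wildtype 1 (log2 fold change 2.30, adjusted p = 0.0426 from edgeR, where 9.45% of all genes were called). Its adjusted p ranged from 0.0426 to 0.701 over the 17 alternatives that gave one, and DESeq2 gave none.

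*Hoxa3* (ENSMUSG00000079560, chr6:52169062-52213336) had 77, 74 and 11 counts in wildtype and 139, 128 and 58 in mutant, or 1.73, 1.78 and 0.339 against 3.47, 3.42 and 1.54 CPM. The groups overlapped, because mutant 3 was under wildtype 1 and 2, and wildtype 3 was far below the rest. The log2 fold change was 1.10 (SE 0.49) with an adjusted p of 0.305 from edgeR, and p = 0.3 from the exact permutation test. With the replicate number of the titles as a block, *Hoxa3* was called (log2 fold change 1.25, adjusted p = 0.00985 from edgeR), in a fit that called 5.6% of all genes. Without wildtype 3 its log2 fold change was 0.68 (adjusted p = 0.526 from edgeR). In its annotation 27.1% of the exon bases of *Hoxa3* are shared with other genes, among them *Hoxaas2*, *Hoxaas3* and *5730596B20Rik* on the opposite strand, and whether the counting used the strand is not given in the sources used here.

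The third gene to be called in any fit was *Hoxd3* (ENSMUSG00000079277, chr2:74711927-74748442), a paralog of *Hoxa3* known from the upper cervical vertebrae. It had 27, 2 and 4 counts in wildtype and 33, 18 and 29 in mutant. Wildtype 1 lay among the mutant libraries, and the other wildtype libraries far under them. The log2 fold change was 1.36 (SE 0.70; adjusted p = 0.362 from edgeR). Without wildtype 1 it was 3.02 with an adjusted p of 0.0261 from edgeR, so that 1 library decided the call.

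The gene with the highest level did not pass in any fit. *Hoxb4* (ENSMUSG00000038692, chr11:96318267-96321638) had 1.75, 1.64 and 0.924 CPM in wildtype and 1.62, 2.72 and 2.04 CPM in mutant (log2 fold change 0.55, SE 0.31; adjusted p = 0.395 from edgeR), and the groups overlapped. The fitted difference was less than 2 SE from 0, and an adjusted p of that size does not show that the labels were alike.

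**Figure D4:**
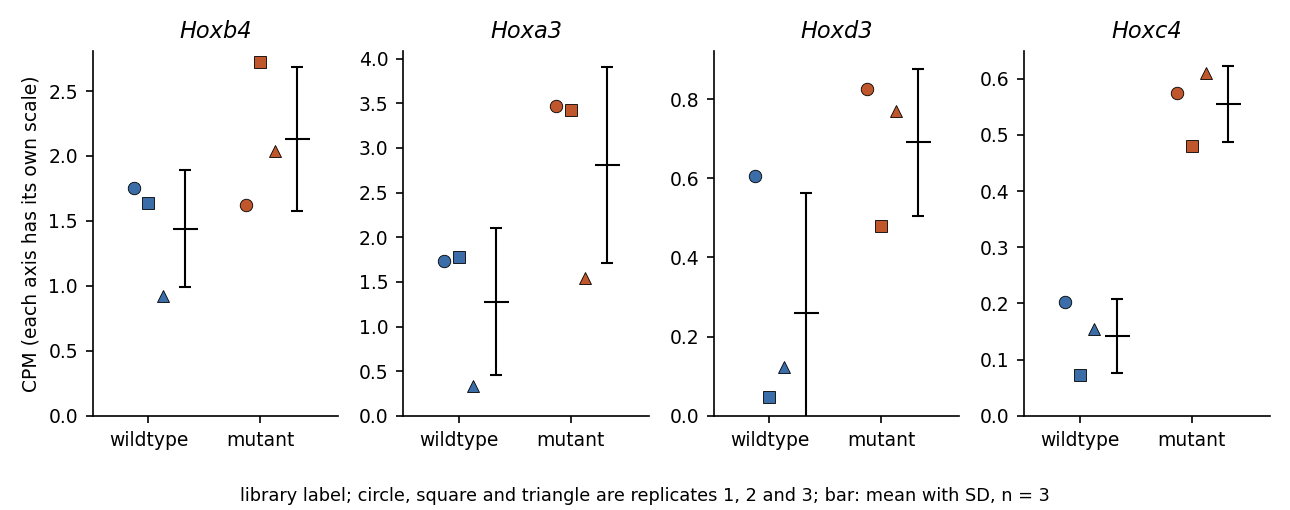
CPM of 4 Hox genes in each library (blue: wildtype, orange: mutant; circle, square and triangle: replicates 1, 2 and 3), with the mean and SD of each label beside the points (n = 3); each panel has its own scale from 0, and the lower SD bar of wildtype *Hoxd3* is cut off at 0. The labels are apart for *Hoxc4* only, and wildtype 3 is the lowest library for *Hoxb4* and *Hoxa3*.

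Among whole groups, group 3 had 0.613, 0.489 and 0.137 CPM per kb in wildtype and 0.992, 1.07 and 0.62 in mutant, where wildtype 1 lay just under mutant 3. As summed CPM not divided by length, a setting added after seeing the data, the same libraries overlapped (3.1 in wildtype 1 against 3.08 in mutant 3). Group 4 had 1.35, 1.03 and 0.538 CPM per kb in wildtype and 1.57, 2.2 and 1.33 in mutant, where wildtype 1 was just above mutant 3, and without the division by length the 2 labels did not overlap (2.95 against 3.16 CPM for the same libraries). The order of these libraries thus depended on the scale. Group 2 had means of 0.566 ± 0.242 in wildtype and 0.784 ± 0.404 in mutant (SD, n = 3 each). By cluster, the c cluster (0.105 to 0.208 CPM per kb in wildtype, 0.258 to 0.367 in mutant) and the d cluster (0.135 to 0.29 and 0.384 to 0.545) did not overlap on either scale, while the a and b clusters did. Of single genes, 19.6% of all tested did not overlap, and no such share was computed for sums of genes. The c and d clusters held few reads, at most 35 and 61 counts per library, and the d sum includes *Hoxd3* and *Hoxd4*, whose values are uncertain. In mutant, *Hoxc4* alone had 23, 18 and 23 of the 27, 29 and 35 counts of the c cluster. In wildtype it had 9, 3 and 5 of 12, 22 and 16. *Hoxd3* had 33, 18 and 29 of the 53, 61 and 55 mutant counts of the d cluster, and 27, 2 and 4 of 45, 31 and 13 in wildtype. Among single genes of these clusters only *Hoxc4* and the floor gene *Hoxd1* did not overlap, so the sums do not show a difference of whole clusters.

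Hox level and tissue markers differed together between the libraries. Wildtype 3 had the lowest summed Hox level (4.38 CPM), the lowest Mesenchymal sum (5398 CPM) and the highest Myocardial sum (53587 CPM), and mutant 2 had the highest Hox level (17.7 CPM), the highest Mesenchymal sum (12436 CPM) and the lowest Myocardial sum (25119 CPM). Of the Mesenchymal markers, all 13 had a log2 fold change above 0 (median 0.57), and of the Myocardial markers all 15 below 0 (median −0.52), with 0 called by edgeR in either list. DESeq2 called 1 Mesenchymal marker higher and 6 Myocardial markers lower (2.64% of all genes called). With the replicate block of the titles, 10 Mesenchymal markers were called higher and 11 Myocardial markers lower (5.6% of all genes). With the Myocardial mean as a covariate the log2 fold change of *Hoxa3* was −0.022, and with the Mesenchymal mean it was −0.027, while *Hoxc4* kept 2.04 and 1.74, with adjusted p-values between 0.628 and 0.999 (edgeR) for these 4 values. Both marker means went partly with the label, so with 6 libraries these fits cannot separate the label from the marker level. The part of tissue make-up in the Hox values was not tested.

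**Figure D5:**
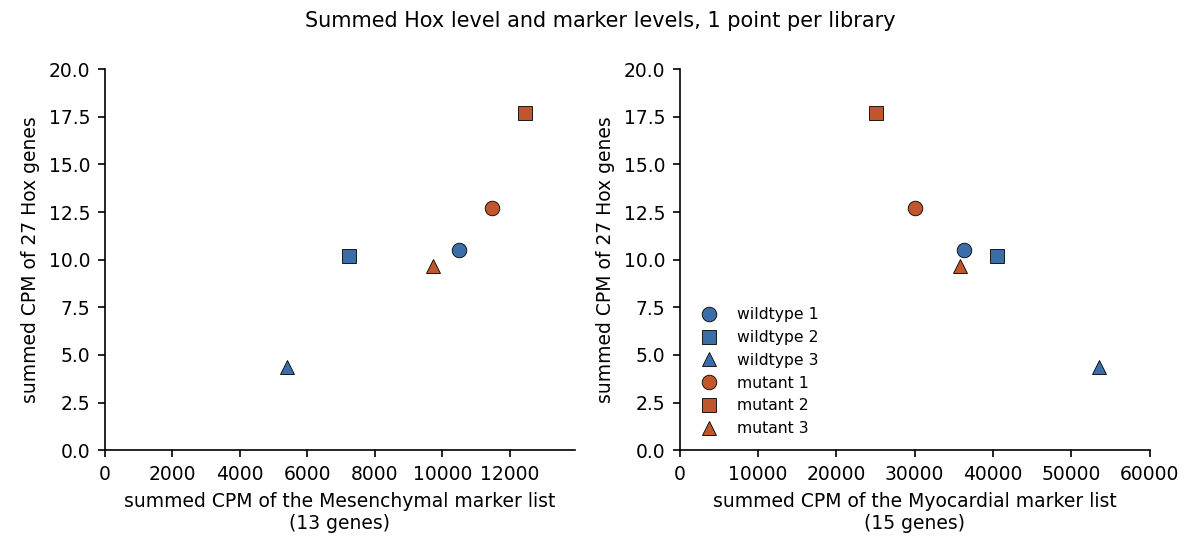
Summed CPM of the 27 Hox genes (vertical axis) against the summed CPM of 13 Mesenchymal markers (left) and 15 Myocardial markers (right), 1 point per library (blue: wildtype, orange: mutant). Wildtype 3 has the lowest Hox and Mesenchymal sums and the highest Myocardial sum, and mutant 2 has the opposite on each axis.

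Markers of other tissues near the OFT were looked up in the same way. The 6 tested Neural crest and glia markers summed to between 22.4 and 36.2 CPM in wildtype and between 31.4 and 40.4 in mutant, and the 9 Neuronal markers to between 80.2 and 106 and between 97.2 and 116. Most of the Neuronal sum was *Hand2*, which the OFT itself is known to express (67.8 to 82.3 CPM over the 6 libraries). *Tubb3*, a tubulin of neurons, had 9.67, 6.65 and 4.56 CPM in wildtype and 18.5, 18.3 and 14.6 in mutant (log2 fold change 1.29; adjusted p = 6.09e-05 from DESeq2 and 0.128 from edgeR). The 4 Lung mesenchyme markers had between 3.97 and 6.48 CPM in wildtype and 5.81 and 6.72 in mutant, and the 5 tested Lung and foregut epithelium markers between 30.7 and 41.1 and between 26.6 and 30.7. Nearly all of the epithelial sum was *Krt8* (8.75 to 13.2 CPM) and *Krt18* (17.5 to 26.9 CPM), while *Foxa1*, *Epcam* and *Cdh1* had between 0.0482 and 0.723 CPM. The 3 tested Pharyngeal pouch and thymus markers were near 0, from 0.154 to 0.424 CPM, and *Pax1*, a defining gene of the pouches, was at the floor. Blood markers (10 genes) had between 5420 and 11914 CPM in wildtype and between 6175 and 6325 in mutant, VSMC markers (8 genes) between 2015 and 2770 and between 1771 and 2092, Endothelial markers (9 genes) between 1009 and 1327 and between 1113 and 1218, and Epicardial markers (8 genes) between 253 and 412 and between 275 and 338. The part of these tissues in the Hox counts was not tested.

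The genes that work with or on Hox genes were taken from lists. Of the 9 Hox cofactors (Pbx, Meis and Pknox genes), 7 had a log2 fold change above 0 and 2 below, with a median of 0.15 and 0 called by edgeR. With the replicate block of the titles *Pknox2* was called (adjusted p = 0.0174 from edgeR, 5.6% of all genes called). The highest were *Pknox2* (0.56, adjusted p = 0.291) and *Meis3* (0.40, adjusted p = 0.274, both edgeR). Of 7 transcription regulators of Hox genes, 5 were tested and 0 called (median 0.19). *Egr2*, which drives the group 2 genes in the hindbrain, had 1.78, 0.988 and 1.2 CPM in wildtype and 3, 1.95 and 2.84 in mutant (log2 fold change 0.97; adjusted p = 0.203 from edgeR and 0.0254 with that block). *Cdx1* was near the floor, with 5 counts in wildtype 2, 1 in mutant 1 and 0 in the others.

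No gene of the chromatin lists was called by edgeR or DESeq2. Of 15 Polycomb genes, 10 were above 0 and 5 below (median 0.13), and of 10 Trithorax genes 6 and 4 (median 0.034). At an unadjusted p under 0.05 (edgeR), 1 Polycomb gene (*Pcgf2*) and 3 Trithorax genes (*Kmt2a*, *Kmt2b* and *Kdm6b*) were higher under the mutant label, against 8.23% of all genes tested. Lower was 1 Trithorax gene (*Dpy30*), against 7.83% of all. The libraries did not overlap for 3 of the 15 and 6 of the 10 genes, against 19.6% of all genes tested. The largest values were those of *Cbx7* (0.31) and *Pcgf2* (0.29) among Polycomb genes, and of *Dpy30* (−0.42), *Kmt2a* and *Kmt2b* (0.36 each) among Trithorax genes. Of these, *Dpy30* was called lower with the replicate block of the titles (adjusted p = 0.0357 from edgeR, 5.6% of all genes called). The core enzyme *Ezh2* of Polycomb repressive complex 2 did not pass either (log2 fold change −0.011, adjusted p = 0.974 from edgeR). Of 18 Retinoic acid genes, 13 were above 0 and 5 below (median 0.17), with 0 called by edgeR and 2 by DESeq2 (2.64% of all genes). Those called were *Cyp26b1*, an enzyme that degrades retinoic acid (21.6, 21.2 and 16.4 CPM in wildtype, 35.5, 34.7 and 29.1 in mutant; log2 fold change 0.74; adjusted p = 0.000456 from DESeq2 and 0.128 from edgeR), and the receptor gene *Rarg* (32, 17.7 and 15.1 against 43.9, 47.1 and 31.6 CPM; log2 fold change 0.92; adjusted p = 0.014 from DESeq2 and 0.194 from edgeR). Of the other genes of this list with a mean of at least 1 CPM, *Cyp26a1* (1.02, adjusted p = 0.299) and *Aldh1a3* (0.92, adjusted p = 0.213, both edgeR) had the largest log2 fold changes. *Cyp26c1*, with 0 to 12 counts per library, had 1.35 (adjusted p = 0.556 from edgeR). With the replicate block of the titles, which called 5.6% of all genes, 4 genes of the list were called higher. They were *Cyp26b1* (adjusted p = 0.000497), *Rarg* (0.000467), *Cyp26a1* (0.0117) and *Crabp2* (0.0145, all edgeR). *Aldh1a2*, the main enzyme of retinoic acid synthesis in the embryo, had −0.38 (adjusted p = 0.379 from edgeR).

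The clusters also hold 16 other genes with counts, 12 of them on the strand opposite to the Hox genes. Of these 15 were tested and 0 called, 13 had a log2 fold change above 0 and 2 below, and the median was 0.72. Over all genes tested, 51.2% were above 0 and the median was 0.011. Only 6 of the 16 were above 3 counts in all 6 libraries, and several share exons with Hox genes or with each other, so they are not independent. Antisense RNAs lay in the same low range as the Hox genes. *Hoxb3os*, which overlaps *Hoxb2* and *Hoxb3*, had 0.81, 0.434 and 0.216 CPM in wildtype and 0.725, 0.774 and 0.955 in mutant. *Hoxaas2* ranged from 0.424 to 2.03 CPM with no order by label. *5730596B20Rik*, which overlaps *Hoxa3*, was the only gene among them with an unadjusted p under 0.05 (log2 fold change 1.60, adjusted p = 0.245 from edgeR), and its counts of 14, 3 and 11 in wildtype lay under the 27, 41 and 16 in mutant. Exon bases were shared with another gene for 12 of the 27 Hox genes, most for *Hoxd3* (62.8%), *Hoxb3* (52.9%) and *Hoxd4* (52.3%), so reads of *Hoxb3* and *Hoxb3os* in particular cannot be told apart without strand.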

How the data were processed

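Stranded total RNA libraries of pooled E13.5 OFTs were sequenced as paired-end reads of 50 bases, 3 per label. Alignment to mm10 was done by the authors with TopHat2 2.1.0 (version per the submitters' processing notes), and GenomicAlignments gave the deposited read counts per gene, which are raw whole numbers. The annotation release, the use of the strand and the treatment of reads on overlapping genes are not given in the sources used here, so values of overlapping and antisense genes are uncertain. The columns carry library numbers, which were matched to the sample titles, and columns not used numbered 0.

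Counts were analysed in R 4.3.3. Following the filter of the study, genes had to have more than 5 reads in total, which kept 28157 of 28777. These were scaled by TMM and compared with edgeR 4.0.16 (quasi-likelihood test, Benjamini-Hochberg adjustment over all genes, adjusted p of at most 0.05). Standard errors of these fits are the absolute log2 fold change divided by the square root of the F statistic of the test, and are unstable for changes near 0. Single values were compared with an exact two-sided permutation test of log2 of CPM plus 0.5. Levels between genes are CPM divided by merged exon length in GENCODE M21, which holds 28723 of the identifiers. Totals per library were 34729103 to 44387490 counts, and floors of 3 counts cover counting error only. Fits were tested on simulated data.

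The Hox genes and all lists were chosen with earlier results of these data known. Named in the text are genes called in any fit, those with the largest changes at a mean of at least 1 CPM, the highest gene of each group, and in each list of genes that act with or on Hox genes those called and the 2 with the largest changes at that mean, while marker lists are given by their sums. *Hoxa7*, *Hoxb5*, *Hoxb7*, *Hoxc6*, *Hoxd8*, the antisense RNAs and single list genes besides these were chosen after their values were seen. Some genes that these rules cover are not reported here. Alternatives were DESeq2 1.42.0, limma-voom (limma 3.58.1), other scalings, filters, lengths and floors, a GC content and length offset, blocks on the replicate number, covariates and each library left out.

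The replicate numbers were checked as pairs: deviations from the group means of same-numbered libraries correlated at 0.101, 0.152 and 0.458 over 16655 genes by the titles. The labels do not say what a number marks, and with the numbers of the descriptions pairs correlated at −0.118 and −0.487, so both blocks were fitted.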

Additional observations from a re-analysis of the deposited data

How the results depend on the processing

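The number of Hox genes called lower was 0 in every fit run. The number called higher, 0 as reported, was 1 (*Hoxa3*) with the replicate number of the titles as a block, 2 (*Hoxa3* at a log2 fold change of 1.18 and adjusted p = 0.0113, and *Hoxc4* at 1.98 and adjusted p = 0.0476, edgeR) with that block and the GC content and length offset, and 0 to 2 without single libraries, the 2 being *Hoxc4* and *Hoxd3* without wildtype 1. The block on the numbers of the descriptions called 0, so the paired value depends on which label numbers wildtype 2 and 3. The fit with the block and the offset called 8.6% of all genes.

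The median log2 fold change of the Hox genes, 0.55, was 0.36 with limma-voom, 0.65 with scaling by library size only (which moved the median of all genes to 0.11), 0.76 with filterByExpr (which kept 11 members), 0.22 with the Mesenchymal mean as a covariate and −0.034 with the Myocardial mean, and between 0.35 and 0.87 without single libraries. Over members above 3 counts in all 6 libraries only, a setting added after seeing the data, it was 0.57. The number of genes whose groups do not overlap, 2 as reported, was between 4 and 6 without single libraries, which leaves fewer pairs of libraries to compare. At a floor of 10 counts 14 genes in place of 5 were at or under it in all libraries. The log2 fold change of *Hoxa3*, 1.10 as reported, was −0.022 and −0.027 with the Myocardial and the Mesenchymal covariate. The cause of these changes was not tested. The share of groups 1 to 5, 88.7%, lay between 87.4% and 90.6% over all lengths and libraries left out. Depth limits groups 9 to 13 most, since their counts of 0 to 6 per library cannot tell low from absent expression.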
